A study of Mus musculus with 4 samples.

Results

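Mouse blastocysts were profiled for 10 genes that build or assemble the laminin and collagen IV layer of a basement membrane: the laminin chains Lama1, Lama5, Lamb1 and Lamc1, the collagen IV chains Col4a1 and Col4a2, the linkers Nid1 and Hspg2, and the collagen-binding proteins Sparc and Serpinh1. The set was taken by gene name, and all 10 were found among the 20714 gene symbols listed in both assays. Messenger RNA was measured by RNA-seq and ribosome-protected fragments (RPF) by Ribo-seq, each in 2 replicate libraries of blastocysts. Every library came from pooled whole wild-type embryos, labelled untreated. The embryos were bred from 4-week-old C57BL/6J females, injected with PMSG and hCG to induce ovulation, and PWK/PhJ males, although the strain label reads C57BL/6N x PWK. They were taken at the 8-cell stage, grown to blastocysts in KSOM medium and freed of the zona pellucida. RNA-seq used Smart-seq2, which copies polyadenylated RNA and keeps no strand. Ribo-seq used Ribo-lite, a ribosome profiling method for small samples. Nothing states that the replicates came from separate cultures, so the p-values measure only the spread between these libraries, which may be technical.

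A basement membrane is a thin sheet of extracellular matrix beneath epithelial and endodermal cells. Laminin is secreted as a trimer of an alpha, a beta and a gamma chain, and trimers join into a network at the cell surface. Collagen IV is a triple helix, most often of alpha-1 and alpha-2 chains with alpha-1 in excess, which forms its own network tied to laminin by nidogen and perlecan. In the blastocyst such sheets underlie the trophectoderm and separate the primitive endoderm from the epiblast, and the parietal endoderm that arises later is known for making very large amounts of them.

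Levels are FPKM, fragments per kilobase of feature scaled to sequencing depth, which allows for the length of a gene. In Ribo-seq the length correction assumes fragments with a mean of 200 bases, longer than footprints. The RPF of short coding sequences may therefore be overstated beside that of long ones. RNA-seq FPKM was computed over transcripts and Ribo-seq FPKM over coding sequences. The low FPKM values fell close to whole fragments, which gave implied depths of 5457360 and 5154990 fragments in RNA-seq and of 533327 and 484024 footprints in Ribo-seq. Of the low values, 65.1% to 67.8% in RNA-seq and 87.0% to 87.1% in Ribo-seq lay within 0.1 of a whole fragment, where evenly spread values would give 20%. Fragment numbers given for single genes rest on these depths, and intervals made from them cover counting error only. The markers of the labelled stage were unevenly represented. All 7 trophectoderm markers had a mean of at least 1 FPKM in both assays. They summed to 3045 and 2824 FPKM of mRNA, of which Krt18 held 1757 and 1754 FPKM and Krt8 1078 and 838 FPKM. Of the 6 epiblast markers, all 6 reached 1 FPKM in RPF and 3 in mRNA. Of the 10 primitive endoderm markers, 6 reached 1 FPKM in RPF and 3 in mRNA. These 3 were Dab2, Lrp2 and Gata6, with mean mRNA of 129, 36.2 and 9.93 FPKM, and they were also the 3 highest of the list in mean RPF. Among the other primitive endoderm genes, Sox17 gave RPF of 32.7 and 27.6 FPKM with mRNA of 0.204 and 0 FPKM. Gata4 gave RPF of 14.98 and 20.2 FPKM with mRNA of 0.0574 and 0 FPKM.

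Each coding sequence begins in its own setting, shown here because the ribosome reads the bases around the start codon and the report compares RPF with mRNA. The lines below give 9 bases before the start codon, the start codon and 1 base after it, 5′ to 3′, from GENCODE vM1 on NCBIM37, the build of the files. Capitals mark the base at position -3, the start codon and the base at position 4, counting the A of ATG as 1.
Lama1: ggcgacAacATGC
Lama5: agcaggAaaATGG
Lamb1: cggcagGaaATGG
Lamc1: cgcagcGggATGA
Col4a1: cgcgccAccATGG
Col4a2: actgggAtcATGG
Nid1: ttgggaAacATGC
Hspg2: ggccggGccATGG
Sparc: cccagcAtcATGA
Serpinh1: ctcccaGccATGC

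A purine stood at position -3 in 10 of 10 genes, against 84.2% of 18811 coding genes. A G stood at position 4 in 5 of 10, against 49.4%. Both bases were present together in 5 of 10, against 41.4%, so the 5 other genes lacked the G alone. These are descriptions of the letters, and no effect on RPF was tested.

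The 10 genes spanned a wide range of RPF. Sparc was highest in both Ribo-seq libraries, followed by Serpinh1 and Lamc1, and Hspg2 was lowest in both. The ranking by RPF was Sparc, Serpinh1, Lamc1, Lamb1, Col4a1, Nid1, Lama5, Lama1, Col4a2 and Hspg2. The replicate ranges of Lama5 and Lama1 overlapped, as did those of Lama1 and Col4a2, and no other neighbours in this order overlapped. By mRNA, Sparc again stood first, without overlap with Lamb1 behind it. All other neighbours in the mRNA order, which ran Lamb1, Lama5, Lamc1, Nid1, Serpinh1, Lama1, Col4a1, Col4a2 and Hspg2, had overlapping replicates.

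**Figure D1:**
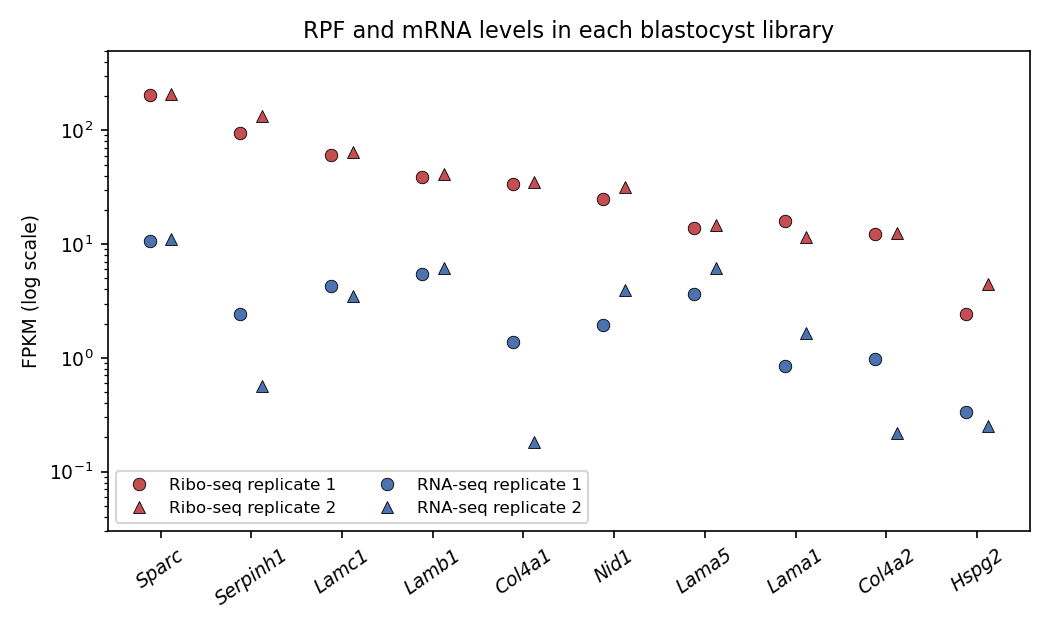
FPKM of each gene in each library on a log axis, ordered by mean RPF (red, Ribo-seq; blue, RNA-seq; circles, replicate 1; triangles, replicate 2). Sparc is highest in both assays. The RNA-seq replicates of Col4a1, Col4a2 and Serpinh1 lie 4.26-fold to 7.59-fold apart and their Ribo-seq replicates 1.03-fold to 1.41-fold apart.

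The plot of levels by library shows that the replicates agreed better in RPF than in mRNA for these genes. The median absolute log2 difference between replicates, on the log2(FPKM+1) scale, was 0.57 for mRNA and 0.07 for RPF over the 10 genes. Over all genes tested, which had a mean of at least 1 FPKM in both assays, it was 0.27 for mRNA and 0.48 for RPF. Col4a1, Col4a2 and Hspg2 fell below that mean in mRNA, so the sets were not matched in level. The ranges of the RPF replicates were 1.05-fold or less for 6 of the 10 genes, and widest for Hspg2 at 1.82-fold. Hspg2 went furthest against this pattern, with a log2 difference of 0.09 in mRNA and 0.66 in RPF. Ribo-seq gave more fragments than RNA-seq for 5 of the 10 genes, among them Col4a1, with 167 footprints against 54.4 mRNA fragments over both replicates, and Serpinh1, with 121 against 35.5.

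Lama1 and Lama5 encode alpha chains, which carry the cell-binding end of the laminin trimer. Lama1 (NCBIM37, chr17:68046605-68171985, plus strand, 63 exons) gave RPF of 15.99 and 11.5 FPKM, from 77.2 and 50.3 footprints, and mRNA of 0.854 and 1.66 FPKM. Lama5 (chr2:179911078-179960564, minus strand, 79 exons) gave RPF of 14.0 and 14.7 FPKM and mRNA of 3.67 and 6.16 FPKM. The RPF of the alpha chains overlapped, whereas the mRNA of Lama5 was above that of Lama1 in both libraries.

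Lamb1 and Lamc1 encode the beta and gamma chains that most embryonic laminins share. Lamb1 (chr12:31950099-32014509, plus strand, 33 exons) gave RPF of 39.1 and 40.9 FPKM and mRNA of 5.42 and 6.11 FPKM. Lamc1 (chr1:155066052-155179916, minus strand, 28 exons) gave RPF of 60.8 and 63.9 FPKM, from 150 and 143 footprints, and mRNA of 4.26 and 3.47 FPKM. In RPF, Lamc1 was above Lamb1 in both replicates, and in mRNA Lamb1 was above Lamc1 in both.

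Compared within each library, Lamb1 stood at 0.643 and 0.640 of Lamc1 in RPF, with upper 95% exact (Clopper-Pearson) counting bounds of 0.830 and 0.829, both below 1. The mRNA ratio was 1.27 and 1.76. Lama1 stood at 0.263 and 0.180 of Lamc1 in RPF and at 0.200 and 0.477 in mRNA. Lama5 stood at 0.230 and 0.229 of Lamc1 in RPF and at 0.861 and 1.78 in mRNA. For Lamb1 and Lama5 the RPF and mRNA ratios did not overlap, and for Lama1 they did. The alpha chains together made 0.493 and 0.409 of Lamc1 in RPF, against 1.06 and 2.25 in mRNA. With 2 libraries against 2, an exact two-sided permutation test cannot give a p below 0.33, and no other test of these ratios was run.

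**Figure D2:**
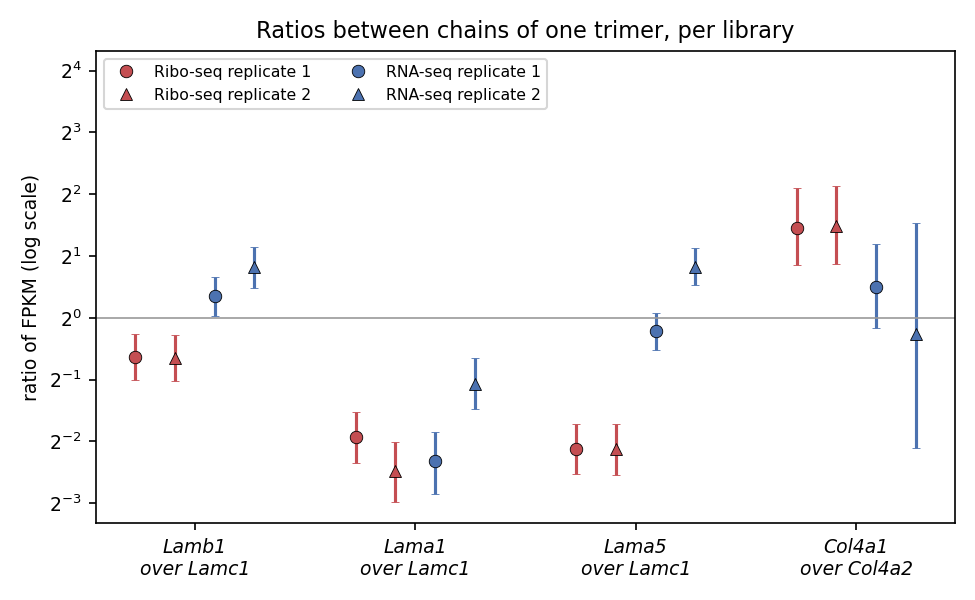
Ratio of FPKM between chains of a trimer in each library on a log axis, with 95% exact counting intervals (red, Ribo-seq; blue, RNA-seq; circles, replicate 1; triangles, replicate 2; grey line, a ratio of 1). The Ribo-seq ratios of Lamb1 and Lama5 to Lamc1 lie under 1 and below their RNA-seq ratios, and the Ribo-seq ratios of Col4a1 to Col4a2 are 2.75 and 2.80.

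Col4a1 and Col4a2 encode the collagen IV chains found in nearly all basement membranes. The genes lie head to head on chromosome 8, Col4a1 at chr8:11198423-11312826 on the minus strand with 52 exons and Col4a2 at chr8:11312805-11449287 on the plus strand with 48 exons. Their first exons overlap by 22 bases at chr8:11312805-11312826, shown on the plus strand because unstranded RNA-seq reads that lie here cannot be assigned to one gene.
First exon overlap: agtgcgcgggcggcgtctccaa

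A collagen chain is a repeat of glycine followed by a pair of other residues, and this repeat is visible in the coding sequence. The stretches below show 18 codons of each gene, read 5′ to 3′ along its own strand, with the first bases GG of every glycine codon of the repeat in capitals. The Col4a1 stretch lies at chr8:11247042-11247095 on the minus strand and the Col4a2 stretch at chr8:11429447-11429500 on the plus strand.
Col4a1 codons 49 to 66: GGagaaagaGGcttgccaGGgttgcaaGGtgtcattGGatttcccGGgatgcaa
Col4a2 codons 777 to 794: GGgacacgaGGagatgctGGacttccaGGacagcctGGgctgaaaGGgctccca

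Runs of 5 or more such units held 79.2% of the codons of Col4a1 and 75.2% of those of Col4a2, and none of the codons of the 8 other genes. Glycine codons made up 28.6% and 27.6% of all codons in the collagen chains, against 5.28% to 9.6% in the other genes. Despite the repeats, no window of 28 bases, about the length of a footprint, was shared exactly between Col4a1 or Col4a2 and another coding gene. The authors allowed 2 mismatches and shorter matches in Ribo-seq reads. Such near matches, and copies in noncoding sequence, were not searched. The largest share in the set was that of Nid1, where 172 of 3711 windows (4.63%) also occurred in Gm2399, so the Nid1 level is less certain. Lama1 shared 3 windows with Lama2 and Lama5 shared 8 with Lama3.

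Col4a1 gave RPF of 33.4 and 35.1 FPKM, from 85.7 and 81.7 footprints, and Col4a2 gave 12.1 and 12.5 FPKM, from 31.9 and 29.9 footprints. The RPF ratio of Col4a1 to Col4a2 was 2.75 in replicate 1, with a 95% counting interval of 1.81 to 4.27, and 2.80 in replicate 2, with an interval of 1.82 to 4.40. Col4a1 was thus higher in both Ribo-seq libraries, beyond counting error in each. The mRNA of Col4a1 was 1.38 and 0.182 FPKM, from 48.4 and 6.02 fragments, and that of Col4a2 was 0.976 and 0.218 FPKM, from 33.3 and 7.03 fragments. The mRNA ratio was 1.42, with an interval of 0.891 to 2.28, and 0.834, with an interval of 0.232 to 2.90, so no order of the chains was detectable in mRNA at this depth.

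RNA-seq replicate 2 held less Col4a1, Col4a2 and Serpinh1 mRNA than replicate 1, and other genes moved with it. The fold between replicates was 7.59 for Col4a1, 4.47 for Col4a2 and 4.26 for Serpinh1. The epiblast markers also summed to less mRNA in replicate 2, 146 against 58.4 FPKM, with Nanog at 69.8 and 28.1 FPKM and Pou5f1 at 70.1 and 28.6 FPKM. All 6 epiblast markers were lower there. The 10 primitive endoderm markers summed to 194 and 159 FPKM of mRNA, of which Dab2 held 148 and 110 FPKM. In replicate 2, 7 of them were lower, among them Pdgfra at 1.36 and 0.336 FPKM, and 2 were higher, among them Lrp2 at 32.3 and 40.0 FPKM. Lama1, Lama5 and Nid1 were instead 1.68-fold to 2.06-fold higher in replicate 2. Of the 7 trophectoderm markers, 5 were lower there. These were Krt8 at 1078 and 838 FPKM, Gata3 at 127 and 112 FPKM, Tfap2c at 24.2 and 21.4 FPKM, Krt18 and Cdx2. Krt18 at 1757 and 1754 FPKM and Cdx2 at 21.6 and 21.0 FPKM hardly differed. Eomes at 15.5 and 32.4 FPKM and Elf5 at 21.7 and 45.1 FPKM were higher. Over all genes tested, the median log2 difference of mRNA replicate 1 from replicate 2 was -0.036. The share of all genes lower in replicate 2 was not counted, so these marker counts have no background beside them. The part of these differences in cell makeup between the pools was not tested, and in whole embryos fewer cells of a type and less RNA per cell cannot be told apart.

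Nid1 encodes nidogen-1, a rod that links the laminin gamma-1 chain to collagen IV, and Hspg2 encodes perlecan, a heparan sulfate proteoglycan. Nid1 (chr13:13529869-13604542, plus strand, 20 exons) gave RPF of 24.8 and 31.4 FPKM and mRNA of 1.93 and 3.97 FPKM. Hspg2 (chr4:137024634-137126545, plus strand, 97 exons) gave RPF of 2.45 and 4.45 FPKM, from 16.9 and 27.9 footprints, and mRNA of 0.332 and 0.252 FPKM. Perlecan was the lowest of the set in RPF, yet every RPF value in the set stood above the floor of 3 footprints. Lamc1 stood 2.45-fold and 2.03-fold above Nid1, its binding partner, in RPF, and at 2.21 and 0.875 of it in mRNA.

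Sparc encodes a secreted glycoprotein that binds collagen IV, and Serpinh1 encodes Hsp47, the collagen chaperone of the endoplasmic reticulum. Sparc (chr11:55208002-55233582, minus strand, 10 exons) gave RPF of 202 and 208 FPKM and mRNA of 10.7 and 11.0 FPKM. Serpinh1 (chr7:106493885-106501740, minus strand, 5 exons) gave RPF of 94.3 and 133 FPKM and mRNA of 2.43 and 0.571 FPKM, from 29.1 and 6.44 fragments. Sparc exceeded 94.7% of all listed genes in RPF replicate 1 and 94.8% in replicate 2, and the corresponding values for Serpinh1 were 90.7% and 92.8%. Together Sparc and Serpinh1 held 59.4% and 61.4% of the summed RPF FPKM of the set, and 41.1% and 34.5% of its mRNA. Their coding sequences are the shortest of the set, so the length correction weighs most on their RPF. The RPF of Sparc amounts to 148 footprints with the correction and 190 without it. For Serpinh1 these numbers are 121 and 144, and for Lamc1 293 and 306. The RPF shares and differences of Sparc and Serpinh1 may thus be somewhat high. The whole set summed to 499 and 556 FPKM of RPF and to 32.0 and 33.6 FPKM of mRNA.

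To ask which of these genes had more RPF than their mRNA level alone would give, log2(FPKM+1) was centred on the median of each library and RPF was compared with mRNA by limma across the 8327 genes whose mean reached 1 FPKM in RNA-seq and in Ribo-seq. A call needed a Benjamini-Hochberg adjusted p below 0.05 and a difference of 1 or more on this log2 scale, which understates the change of low genes. Serpinh1, Sparc, Lamc1 and Lamb1 were called higher in RPF, 4 of the 7 genes of the set that could be tested, and 0 were called lower. Over all 8327 genes, 10.3% were called higher and 8.6% lower. Col4a1, Col4a2 and Hspg2 were not tested, since their mean mRNA was 0.783, 0.597 and 0.292 FPKM. Because the assays count over different features and by different chemistry, a centred difference places a gene against other genes and is not a count of ribosomes per mRNA.

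Serpinh1 had the largest difference of the set, 4.10 ± 0.48 on the log2 scale (SE, limma, adjusted p = 0.00543). Sparc followed at 2.62 ± 0.22 (limma, adjusted p = 0.00206), and Lamc1 stood at 2.21 ± 0.29 (limma, adjusted p = 0.00750). Lamb1 passed only just, at 1.10 ± 0.28 (limma, adjusted p = 0.0495), and missed the threshold under 5 of 12 other settings, among them no filter on low values. In each of these genes both centred Ribo-seq values stood above both centred RNA-seq values. The share of all genes tested that separated in this way was not counted, so the separation is description only.

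Nid1 stood at 1.42 ± 0.41 (limma, adjusted p = 0.0667) and Lama1 at 1.21 ± 0.46 (limma, adjusted p = 0.121). Their centred values did not overlap between assays, but both genes fell short of the threshold. Lama5 stood at -0.10 ± 0.38 (limma, adjusted p = 0.870), and was the gene whose centred values overlapped between assays. Lama5 and Lama1 thus had like RPF from unlike mRNA levels, and the difference between them in this comparison was not tested. The median over the 7 genes tested was 1.42, beside -0.24 over all 8327 genes, whose middle 50% ran from -1.003 to 0.55.

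**Figure D3:**
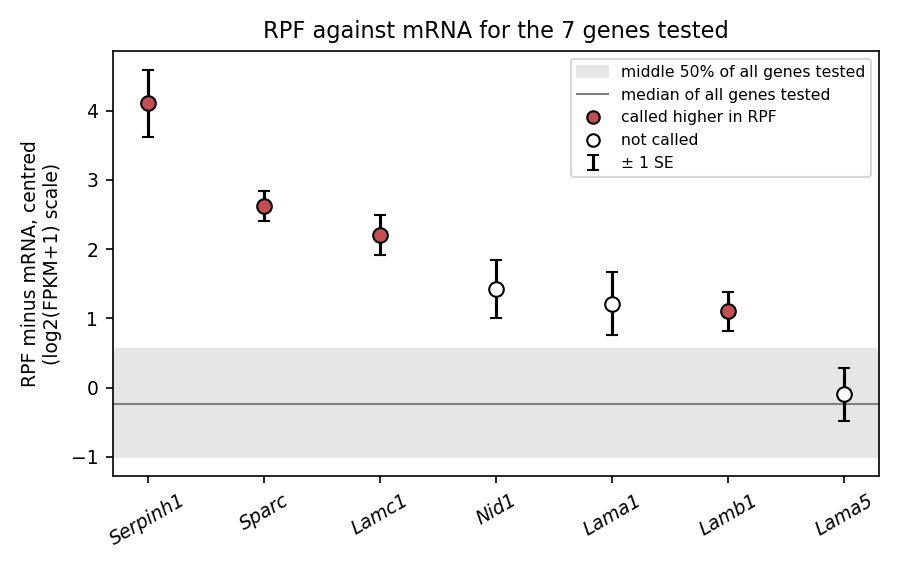
Difference of RPF and mRNA, each centred on its library median, on the log2(FPKM+1) scale, with SE from limma (filled, called higher; open, not called), over the middle 50% of the 8327 genes tested (grey band) and their median (grey line). Serpinh1 is highest at 4.10, and Lama5 lies inside the band at -0.10.

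Without the filter on low values, 10546 genes were tested and 8.35% were called higher. Col4a1 then had a difference of 2.95 (limma, adjusted p = 0.0221) and was called higher. Col4a2 stood at 1.66 (limma, adjusted p = 0.0867) and Hspg2 at 0.31 (limma, adjusted p = 0.708), both not called. The Col4a1 and Col4a2 values rest on the RNA-seq replicate with 6.02 and 7.03 fragments as much as on the other.

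The difference was also set against transcript length. Of the 7 genes tested, 5, the laminin chains and Nid1, fell in the longest of 10 groups of transcripts by length, from 5563 to 28204 bases. The median difference of that group was -0.29, and 7.54% of it was called higher. Sparc and Serpinh1 fell in the fifth group, from 2216 to 2640 bases, with a median of -0.14. Across the 7431 genes with a known length, which are not independent replicates, Spearman's rho of the difference with length was 0.0843. After removal of the length trend, an alternative chosen after the data were seen, 13.0% of genes were called higher. The called genes of the set were then Serpinh1 at 4.26, Sparc at 2.80, Lamc1 at 2.52, Nid1 at 1.61 and Lamb1 at 1.27. The trend was one of transcript length. Its removal therefore does not correct for coding length, through which the RPF of Sparc and Serpinh1 may be overstated.

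**Figure D4:**
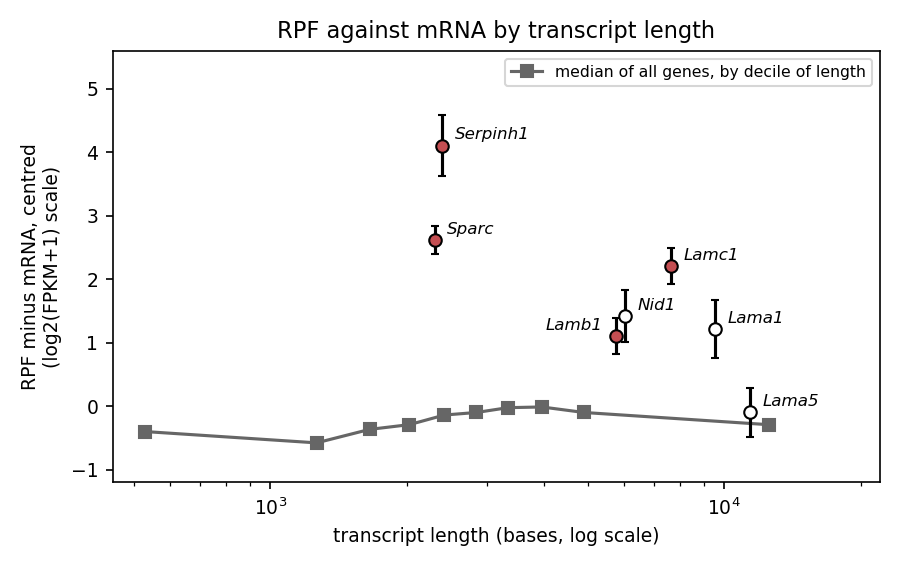
Difference of RPF and mRNA on the log2(FPKM+1) scale against transcript length on a log axis, for the 7 genes tested (points with SE, filled where called higher) and for the median of all genes in each of 10 groups of length (grey squares). The group medians stay between -0.58 and -0.01, while 6 of the 7 genes lie above 1.

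Around these 10 genes, 68 others of 7 lists describe the rest of the basement membrane and its making. Of these, 23 were tested for RPF against mRNA by limma, and 0 were called higher and 0 lower, where 10.3% and 8.6% of all genes were. At an unadjusted p under 0.05, 6 of the 23 passed (26.1%), 5 of them higher in RPF, where 37.4% of all genes tested passed. The median difference over the 23 was 0.62, beside -0.24 over all genes. The list genes named here were taken from the 3 highest in mean RPF of each list.

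Among the other laminin chains, Lamb2, a beta chain, gave RPF of 3.95 and 1.98 FPKM and Lama3, an alpha chain, gave 0.751 and 0.828 FPKM. Both stood below every laminin chain of the set in both Ribo-seq libraries. The 4 other collagen IV chains, Col4a3 to Col4a6, were listed at 0 in all 4 libraries, as were the 5 fibrillar collagens.

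Among 15 other basement membrane components, Tinagl1, a matrix glycoprotein, gave RPF of 56.2 and 20.6 FPKM. Nid2, the second nidogen, gave RPF of 23.8 and 15.4 FPKM, with a difference from mRNA of 1.59 that missed the threshold (limma, adjusted p = 0.0506). Smoc1, a calcium-binding relative of Sparc, gave RPF of 22.6 and 8.91 FPKM. Of the 15, 6 were listed at 0 in every library.

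The 13 receptors included Dag1, dystroglycan, with RPF of 81.4 and 78.9 FPKM, and Itgb1, the integrin beta-1 chain, with 83.4 and 70.4 FPKM. Itga6, an integrin alpha chain that binds laminin, gave RPF of 26.7 and 25.5 FPKM. For each of these laminin receptors the Ribo-seq replicates lay close together, and none was called against its mRNA. The difference from mRNA was 1.16 for Itga6 (limma, adjusted p = 0.0588) and 1.11 for Itgb1 (limma, adjusted p = 0.0724). Both were about as large as the 1.10 of Lamb1, which was called higher. For Dag1 the difference was 0.69 (limma, adjusted p = 0.0911).

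Of 14 genes for the synthesis of collagen and laminin, Ppib, a prolyl isomerase of the endoplasmic reticulum, was highest with RPF of 973 and 889 FPKM. P4hb, a subunit of collagen prolyl 4-hydroxylase and a disulfide isomerase, gave 338 and 345 FPKM, and Crtap gave 88.8 and 98.9 FPKM. Among 10 proteases and inhibitors, Htra1 gave RPF of 63.3 and 56.5 FPKM, Timp1 gave 18.0 and 77.9 FPKM and Timp3 gave 4.32 and 28.6 FPKM. The inhibitors Timp1 and Timp3 thus differed between the Ribo-seq replicates by more than any of the 10 genes did. Their values rest on few footprints, 4.02 and 15.7 for Timp1 and 1.00 and 6.03 for Timp3. In replicate 1, Timp3 lay under the floor of 3 footprints.

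**Figure D5:**
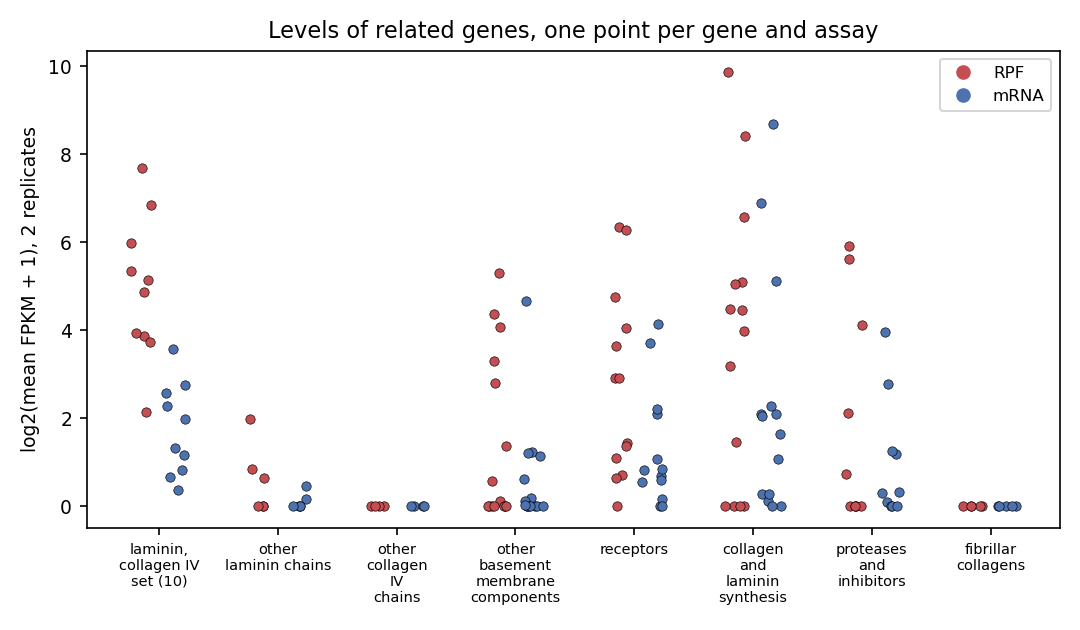
Mean level over 2 replicates on the log2(FPKM+1) scale, with 1 point per gene and assay (red, RPF; blue, mRNA), for the 10 genes and the 7 related lists, without 1 gene that is not reported. The other collagen IV chains and the fibrillar collagens lie at 0 in both assays, and the highest points belong to the synthesis list.

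Markers of cells that could have been carried over with the embryos were near 0. Of 8 cumulus and granulosa markers, 7 were listed at 0 in all 4 libraries and Ptx3 reached 1.09 FPKM in 1 Ribo-seq library. Of 6 fibroblast and stroma markers, 5 were listed at 0 throughout and Pdgfrb was at most 1.21 FPKM. Of 3 blood markers, 2 were listed at 0 throughout, and Hba-a1 gave 1.62 and 0.729 FPKM of mRNA without RPF.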

How the data were processed

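RNA-seq and Ribo-seq FPKM were deposited for each blastocyst library. The authors trimmed reads with Trim Galore 0.4.2 and cutadapt 1.14, removed rRNA reads from Ribo-seq with Bowtie2 2.2.2, mapped to mm9 with STAR 2.5.3a, allowing 20 places per read, and ran Cufflinks 2.2.1 over transcripts (RNA-seq) or coding sequences (Ribo-seq). Reads of multi-mapping genes can therefore be split. Samples were grouped by assay from their titles. For repeated symbols the highest value was kept, which touched none of the 10 genes.

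The 10 genes and the lists were chosen with earlier results of these data known. All 10 were named, and of each other list the 3 genes with the highest mean RPF, except 1 gene that is not reported here. Differences of log2(FPKM+1) were fitted with limma 3.58.1 in R 4.3.3, with a variance trend. Other steps used Python 3.11.15, numpy 2.4.6, scipy 1.17.1, pandas 2.3.3 and matplotlib 3.10.9. Depth was estimated from low FPKM values with the fragment lengths Cufflinks assumes (mean 200, SD 80 bases), which footprints do not have. Fragment numbers are therefore approximate, and the RPF of short coding sequences may be overstated. The depth estimate and the fit were tested on simulated data. Alternatives were the pseudocount, the filter on low values, quantile normalization, the variance trend, a replicate block, each library left out, repeated symbols summed, and the length trend. Coordinates and sequences came from GENCODE vM1 on NCBIM37, and lengths were known for 89.2% of genes tested. The libraries of other stages were not analysed here.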

Additional observations from a re-analysis of the deposited data

How the results depend on the processing

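The number of genes called higher in RPF was 861 and lower 716. Without the variance trend they were 554 and 442, and with the length trend removed 383 were lower. With each library left out in turn, which assumes that a lone library varies like the others, 428 to 1230 genes were higher and 145 to 1634 lower. Of the set, 4 genes were called higher, 2 with a filter of 5 FPKM (both of the 2 genes then tested), and 2 to 6 with a library left out: 2 without either RNA-seq library, 5 without Ribo-seq replicate 1 and 6 without Ribo-seq replicate 2. Of the related genes, 0 were called higher by limma, 2 with a pseudocount of 0.1, 2 with quantile normalization, 1 without the variance trend, 1 with the length trend removed, and 0 to 6 with a library left out, and 0 to 1 were then called lower.

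The difference of Lama5 turned to 0.0348 with quantile normalization, ranged from -0.39 to 0.20 with a library left out (0.20 without RNA-seq replicate 2) and turned to 0.49 with the length trend removed. Sparc and Serpinh1 passed in every alternative that tested them. Serpinh1 was not tested with a filter of 5 FPKM or without RNA-seq replicate 1, since its mRNA was then under the filter (0.571 FPKM in replicate 2). Lamc1 was lost without RNA-seq replicate 2 (limma, adjusted p = 0.0530), and Lamb1 was lost without the filter, without the variance trend, with the replicate block and without either RNA-seq library. Nid1 passed without either Ribo-seq library and Lama1 without Ribo-seq replicate 2. The cause of these changes was not tested.

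Nothing states that same-numbered libraries share embryos, and their deviations correlated at 0.00994 over 8327 genes, so the numbers were not taken as pairs. With the replicate number as a block, 769 genes were higher and 618 lower, 3 of the set were called higher, and Lamb1 missed the threshold (limma, adjusted p = 0.0856).

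Few RNA-seq fragments limit the mRNA values of Col4a1, Col4a2, Hspg2 and Serpinh1 (6.02 for Col4a1 and 6.44 for Serpinh1 in replicate 2), few footprints limit the RPF of Hspg2, and 2 libraries per assay limit every comparison.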
